A study of Mus musculus with 16 samples.

Results

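The region described here is the part of the mouse mitochondrial control region that runs from the first base after the proline tRNA gene to the start of the conserved-block and promoter end, chrM:15423-15999 in GRCm38. It was taken by position alone and holds 577 positions and 1731 of the 48897 possible non-reference alleles, where an allele pairs a position with 1 of the 3 bases that differ from the reference. The name C15632T, for example, gives the reference base C, its position and the base T found there. The region follows TrnP at chrM:15356-15422, contains no gene annotated in RefSeq, and is separated from TrnF by the other 300 positions of the control region. Its bases are 38.8% G or C, against 36.7% over the rest of the mitochondrial genome.

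The values come from ATAC-seq, in which Tn5 transposase cuts and tags DNA, on bulk sorted skeletal cells of femurs from PolG D257A/D257A mice aged 3 months. Every one of the 16 libraries came from this genotype, with no wild-type or treated group. Each of the 8 sorted subsets, labelled CD24, CD24_CD29, CD29, CD45, CD105, 6C3, Thy and Thy_6C3 after surface markers, has a replicate 1 and a replicate 2. The labels state neither the gates nor the animals behind each library. P-values between subsets or numbers therefore measure only how far these libraries differ, perhaps for technical reasons. Those of the region against other positions measure only how consistently the 2 stretches differ within these libraries. The tables of mitochondrial bases allow no check of the sort by marker genes.

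The control region is the main non-coding stretch of vertebrate mitochondrial DNA. It carries the origin of heavy-strand replication and the promoters, and over much of its length a short nascent strand, 7S DNA, stays paired to the template and forms the displacement loop. Many of these strands end near termination-associated sequences, which lie at the proline tRNA end and carry short TACAT words or their complement ATGTA. PolG is the polymerase that copies this genome, and the D257A change takes away its proofreading, so that copying errors remain as point mutations.

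The first 90 bases of the region are shown because they hold the words by which the termination end is known, with each TACAT or ATGTA in capitals, on the reference strand at chrM:15423-15512.
start of the region: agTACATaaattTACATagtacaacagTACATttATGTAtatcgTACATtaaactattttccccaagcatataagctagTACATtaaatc
TACAT, searched on both strands, occurred 6 times in the region, all 6 within this stretch and 5 of them on the reference strand. Of the 14846 stretches of 577 positions that share no position with the region, which overlap one another, 78.3% held at least 1 copy, with a median of 1, and none held more than 5. The match describes letters and is no evidence of a site in use.

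Mean coverage of the region ran from 7123 to 88970 counts per position over the 16 libraries, and its lowest value at any position was 3444. At mean coverage a count of 0 allows, by the rule of 3 counts, at most 0.00337% in the deepest library and 0.0421% in the one with least coverage. All 1731 alleles had a count in at least 1 library, and 1218 had one in all 16. At low fractions sequencing errors and mutations cannot be told apart in these tables. The library Thy replicate 2 stood apart: its load in the region was 0.960%, against 0.266% to 0.362% in the other 15, and results that rest on it are given with and without it. The load adds up the fractions of the 3 alleles at each position and averages this sum over positions.

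The load of transitions, the exchanges of A with G and of C with T, was lower in the region than over the rest of the genome in every library. Their load averaged 0.0544% ± 0.0123 in the region and 0.148% ± 0.0247 over the rest of the genome (SD, n = 16 libraries), a ratio of 0.363 with a range of 0.306 to 0.452. In 6C3 cells the region had 0.0814% and 0.0677% in replicates 1 and 2, against 0.213% and 0.180% over the rest. The values of 6C3 replicate 1 were the highest of all 16 libraries in both stretches. CD29 cells had 0.0601% and 0.0682% in the region and 0.159% and 0.185% over the rest, and Thy cells 0.0498% and 0.0718%, against 0.130% and 0.159%. In CD45 cells the region had 0.0543% and 0.0492%, against 0.144% and 0.135% over the rest. The remaining subsets lay close together. In Thy_6C3 cells the region had 0.0491% and 0.0412%, in CD105 cells 0.0474% and 0.0496%, in CD24 cells 0.0411% and 0.0428%, and in CD24_CD29 cells 0.0563% and 0.0406%, while the rest of the genome in these 8 libraries had 0.133% to 0.134%. The highest value of the region lay below the lowest value of the rest, and the load was lower in 16 of 16 libraries (exact sign-flip permutation test, two-sided, p = 3.05e-05, the smallest that 16 libraries allow). Within each number the load was lower in 8 of 8 libraries of replicate 1 and 8 of 8 of replicate 2 (exact permutation p = 0.00781 in each, the smallest that 8 libraries allow). Libraries with the same number may share animals, so neither p rests on a known number of animals.

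Transversions, the other 8 kinds of change, differed much less. Their load averaged 0.300% ± 0.159 in the region and 0.342% ± 0.167 over the rest (SD, n = 16 libraries), with 0.223% to 0.306% in the region in the 15 libraries other than Thy replicate 2 and 0.888% in that library. The ratio of region to rest was 0.870, with a range of 0.833 to 0.925, and was below 1 in 16 of 16 libraries (exact sign-flip permutation p = 3.05e-05, two-sided). Transitions therefore made up 11.8% to 25.8% of the load of the region in those 15 libraries, against 27.7% to 43.5% over the rest, and 7.48% against 14.2% in Thy replicate 2. With both kinds together the load of the region was 0.709 times that of the rest, with a range of 0.643 to 0.858. For alleles at 1% or more, of which the region held only 1 to 3 in each of those 15 libraries, the ratio was 0.205, with a range of 0.0483 to 0.758. It was 0.736 for alleles under 1%, and 0.539 for all alleles against the other 300 positions of the control region. Each was below 1 in 16 of 16 libraries (exact sign-flip permutation p = 3.05e-05, two-sided).

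**Figure D1:**
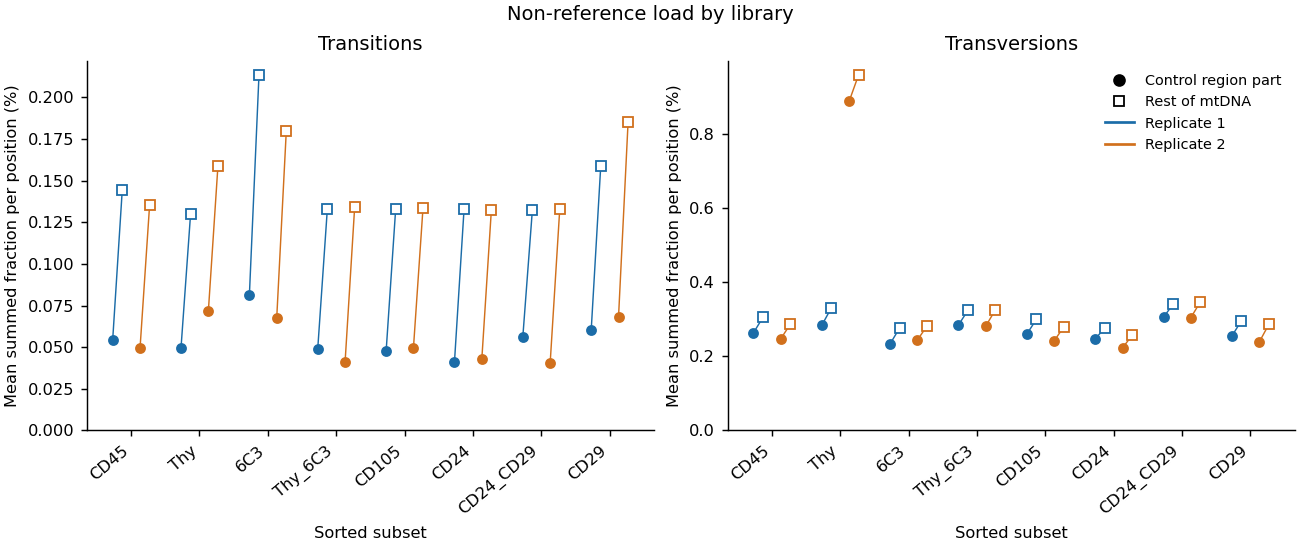
Load of transitions (left) and of transversions (right) in each library, as the mean summed fraction per position in percent, with filled circles for the control region part and open squares for the rest of the mitochondrial genome, coloured by replicate number. Transition loads of the region, 0.0406% to 0.0814%, lie below every value of the rest, 0.130% to 0.213%, while for transversions the 2 stretches lie close together and Thy replicate 2 stands far above the other libraries.

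Each kind of base change was then set against the same reference base elsewhere, so that base composition does not enter. G>A was lowest relative to the rest, at a mean fraction of 1.91 ± 0.341 per 10000 in the region and 8.85 ± 0.749 over the rest (SD, n = 16 libraries), a ratio of 0.213. C>T averaged 3.70 ± 0.788 per 10000 in the region and 12.9 ± 0.987 over the rest, a ratio of 0.282. These 2 changes mirror each other on the 2 strands, as do T>C and A>G, which had higher ratios. T>C averaged 7.90 ± 2.19 per 10000 in the region and 19.7 ± 5.02 over the rest (ratio 0.398), and A>G averaged 6.06 ± 1.83 and 14.2 ± 2.89 (ratio 0.418). All 4 were lower in 16 of 16 libraries (exact sign-flip permutation test, two-sided, adjusted p = 3.66e-05 over the 12 changes).

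Among transversions G>C had a ratio of 0.719, and A>C, A>T, C>A, G>T and T>A had ratios of 0.828 to 0.885, each lower in 16 of 16 libraries with the same adjusted p. C>G had a ratio of 0.976 and was lower in 14 of 16 (exact permutation adjusted p = 0.00393), but it had a p of 0.211 within replicate 2. T>G was the exception, with a ratio of 1.02, higher in 11 of 16 libraries, and did not pass (exact permutation adjusted p = 0.0691).

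**Figure D2:**
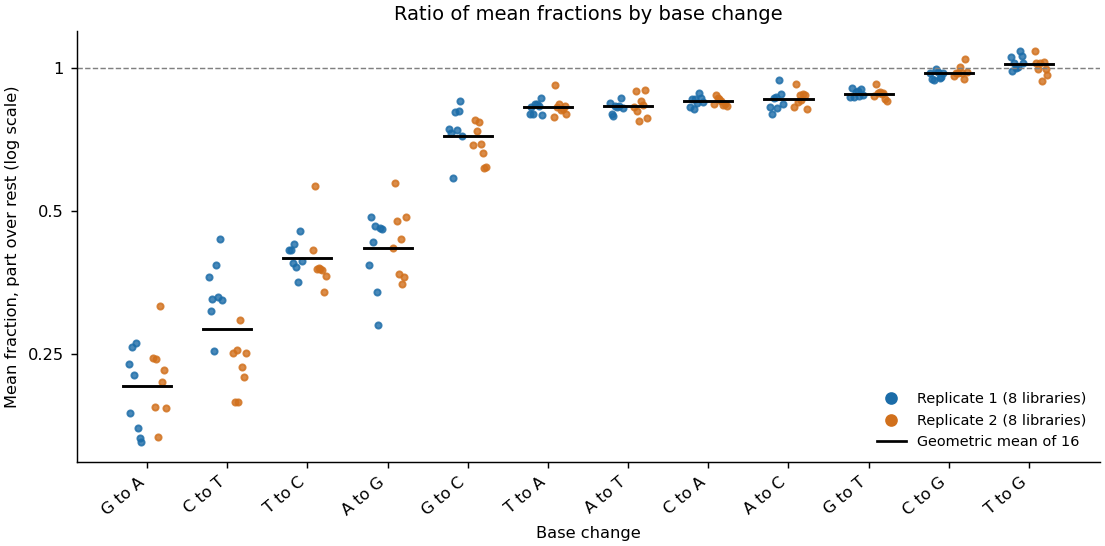
Ratio of the mean fraction in the control region part to that over the rest of the mitochondrial genome for each of the 12 base changes, on a log axis, with 1 point per library coloured by replicate number and a bar for the geometric mean of 16. The 4 transitions lie at mean ratios of 0.213 to 0.418 and the 8 transversions at 0.719 to 1.02.

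The same low transition load was found against each kind of annotated sequence. With each comparison stretch weighted to the base composition of the region, the transition load of 0.0544% ± 0.0123 in the region compared with 0.151% ± 0.0242 in protein genes, 0.142% ± 0.0242 in tRNA genes and 0.141% ± 0.0272 in rRNA genes (SD, n = 16 libraries). Ratios were 0.356, 0.380 and 0.383. Against the other 300 positions of the control region, which averaged 0.0866% ± 0.0162, the ratio was 0.624. All 4 comparisons were lower in 16 of 16 libraries (exact sign-flip permutation adjusted p = 3.05e-05, two-sided). Transversions had ratios of 0.878 to 0.883 to the 3 classes of genes and 0.513 to the other 300 positions, where the load reached a median of 1.14% in a single window of 50 positions. For C>T alone the 2 ends of the control region were nearer, at 3.70 ± 0.788 per 10000 in the region and 4.74 ± 1.27 in the 300 positions, lower in only 10 of 16 libraries (exact permutation adjusted p = 0.0170). These values of the region include C15632T, described below, with a mean fraction of 1.78% in replicate 1 and 0.206% in replicate 2. The C>T ratio of region to rest of the genome was 0.337 in replicate 1 and 0.236 in replicate 2.

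When the genome outside the control region was divided into 26 stretches of 577 positions, none had a transition load below that of the region in any of the 16 libraries. The region had a median of 0.0497% over libraries, and the medians of the 26 stretches ran from 0.118% to 0.165%. For transversions 2 of the 26 stretches lay below the region in some library, and all 26 were higher in 14 of the 16 libraries. The transversion median was 0.257% in the region and 0.274% to 0.339% in the stretches.

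The transition load stepped down at the edge of the tRNA gene. The first 67 positions of the region averaged 0.0433% ± 0.0115 in replicate 1 and 0.0457% ± 0.0134 in replicate 2, against 0.112% ± 0.0240 and 0.113% ± 0.0211 in the 67 positions of TrnP (SD, n = 8 each). The ratio of the adjoining stretches ranged from 0.314 to 0.618 with a median of 0.366, and was below 1 in 16 of 16 libraries. No such step stood at the far edge, where the last 67 positions of the region averaged 0.0480% ± 0.0169 and 0.0506% ± 0.0243 in the 2 numbers and the next 67 positions 0.0430% ± 0.0110 and 0.0535% ± 0.0201.

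Within the region the load varied from window to window. The lowest of the full windows of 50 positions by the median of 16 libraries was the first, which holds most of the TACAT words printed above, at 0.0330%. Nearly as low was chrM:15773-15822, which holds none of these words, at 0.0338%. The highest was chrM:15623-15672 at 0.103%. That window holds C15632T, described below, and without that allele it averaged 0.0786% ± 0.0221 in replicate 1 and 0.0811% ± 0.0147 in replicate 2 (SD, n = 8 each). G or C content of these windows ran from 18% to 56%. In the 11 full windows of the region the median load reached that of no window among the 12 upstream, apart from chrM:15623-15672, whose 0.103% lay above the lowest of the upstream windows, 0.0964%.

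**Figure D3:**
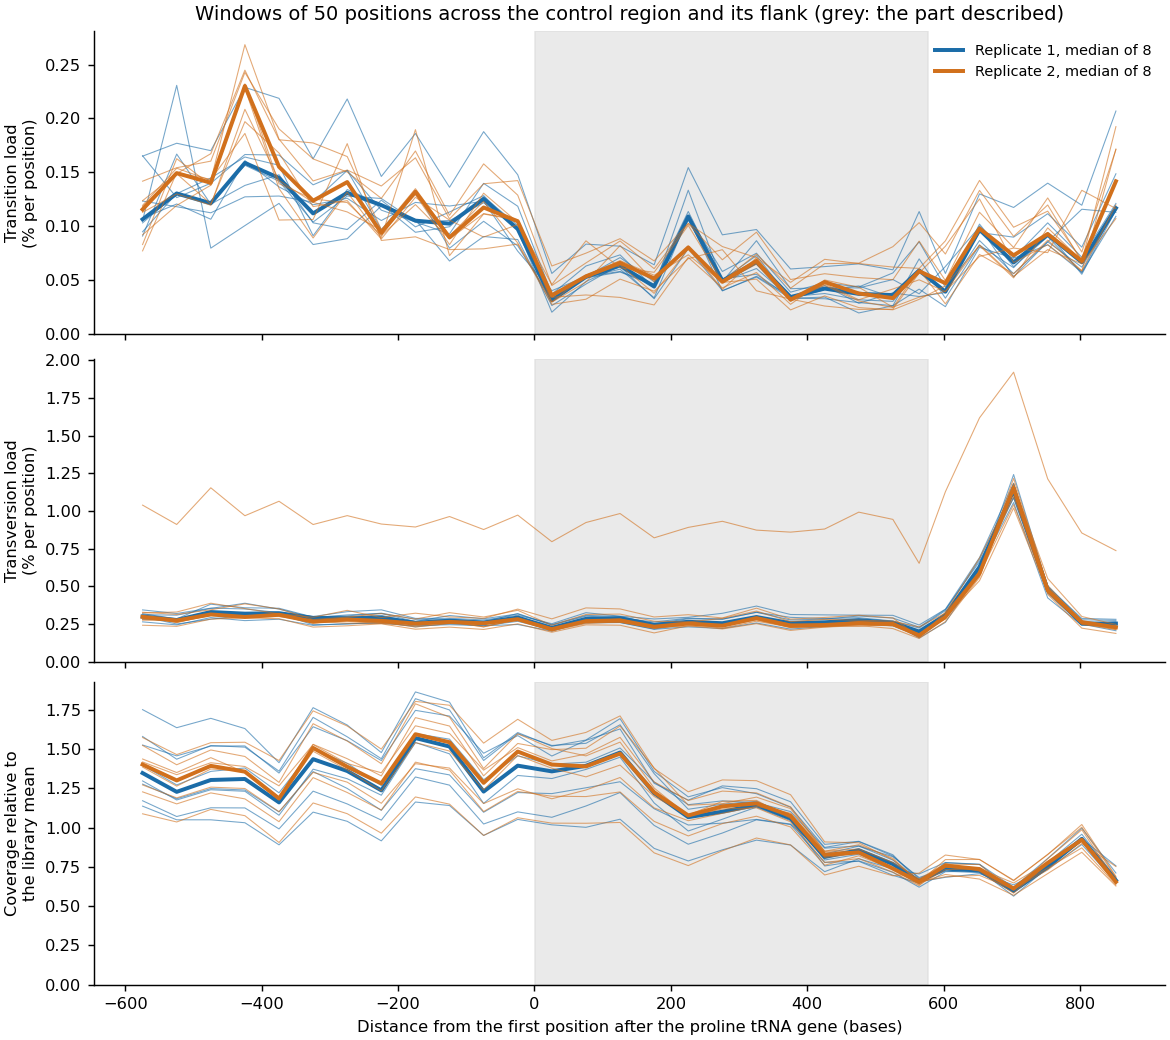
Transition load, transversion load and coverage relative to the library's mean in windows of 50 positions, plotted by distance from the first position after the proline tRNA gene, with thin lines for libraries, thick lines for the median of 8 libraries per replicate number, and the region shaded. Transition load falls at the left edge of the shaded area to a median of 0.0330% and stays low in the first window past its right edge, while transversion load rises to 1.14% beyond the right edge.

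Few positions had a transition at a level common elsewhere. A mean fraction of 0.1% or more was reached by 88 of the 577 transitions in replicate 1, or 15.3%, and by 93 in replicate 2, or 16.1%, against 49.5% and 49.8% of all transitions of the genome. Of these, 70 reached it in both numbers. In the other 300 positions of the control region 28.3% and 30.0% of transitions reached it in replicates 1 and 2, also below the share of the genome. G>A reached 0.1% at only 1 of 81 G positions in each number, which was G15727A in replicate 1 at 0.120% and G15866A in replicate 2 at 0.129%. Over the rest of the genome 24.9% and 25.9% of G positions did so in replicates 1 and 2. C>T reached it at 7 and 6 of 143 C positions, or 4.9% and 4.2%, against 38.4% and 37.7% over the rest. A>G reached it at 33 and 34 of 182 A positions, or 18.1% and 18.7%, against 49.2% and 49.7%. T>C, the change most often at this level in both stretches, reached it at 47 and 52 of 171 T positions, or 27.5% and 30.4%, against 74.2% and 74.7%. Transversions reached it at 56.2% and 70.0% of 1154 alleles, against 59.1% and 72.5% over the genome.

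Alleles at higher fractions were rare. An allele with 5 counts or more that made up 1% or more of the coverage was taken as counted in that library, and 73 of 1731 alleles, 4.22%, were counted in at least 1 library, against 7.13% of all alleles. Of the 73, 68 were counted in Thy replicate 2 alone, 36 as A>C and 29 as T>G. These changes were not particular to the region in Thy replicate 2. A>C averaged 71.1 per 10000 in the region and 76.7 over the rest there, and T>G 68.4 and 66.5. Without that library 5 alleles remained, 0.289% of the region, against 2.31% of all alleles of the genome. These were C15632T, T15932G, C15885G, T15556A and A15939G. The other 15 libraries held 1 to 3 counted alleles each in the region, where 0.2% to 0.851% of all alleles were counted, and Thy replicate 2 held 69, where 5.17% were. The difference of region and rest in counted alleles per 1000 positions averaged -9.47, from -36.9 in Thy replicate 2 to -2.31, and was below 0 in 16 of 16 libraries (exact sign-flip permutation p = 3.05e-05, two-sided). No allele of the region was counted in all 8 libraries of replicate 1, and 1 was in replicate 2, against 0.108% and 0.121% of all alleles.

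The 3 alleles counted in more than 1 library, and A15580G, the highest transition of replicate 2, which stayed under 1%, are shown with 15 bases on each side on the reference strand, the changed base in capitals.
C15632T, chrM:15617-15647: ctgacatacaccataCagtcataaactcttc
T15932G, chrM:15917-15947: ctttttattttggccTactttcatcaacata
C15885G, chrM:15870-15900: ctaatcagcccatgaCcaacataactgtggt
A15580G, chrM:15565-15595: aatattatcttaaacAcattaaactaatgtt

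C15632T was the highest transition of the region and set the 2 replicate numbers apart. In replicate 1 it was at 2.15% in CD45, 2.07% in CD105, 2.07% in CD24_CD29, 1.99% in CD29, 1.89% in Thy_6C3, 1.86% in Thy, 1.30% in 6C3 and 0.917% in CD24. In replicate 2 it was at 0.296% in CD45, 0.152% in CD105, 0.230% in CD24_CD29, 0.265% in CD29, 0.0848% in Thy_6C3, 0.145% in Thy, 0.122% in 6C3 and 0.356% in CD24. The 2 groups did not overlap, and the lowest value of replicate 1 stood above the highest of replicate 2. The mean was 1.78% ± 0.439 in replicate 1 and 0.206% ± 0.0948 in replicate 2 (SD, n = 8 each), a log2 difference of 3.22 (adjusted p = 2.12e-05 with edgeR's quasi-likelihood test, Benjamini-Hochberg over 3487 alleles). It was the only 1 of the 73 alleles of the region tested to pass that contrast, where 201 of 3487 alleles of the genome, 5.76%, were called. An unadjusted p under 0.05 was reached by 2 of the 73, or 2.74%, against 9.66% of the 3487. Of the 73, 68 passed the 1% filter through Thy replicate 2 alone and C15632T through replicate 1 alone, so these shares depend on the filter. Without the filter C15632T was again the only allele of the region called (edgeR adjusted p = 0.00104), where 0.344% of 48828 alleles were called. There 51 of 1714 alleles of the region had an unadjusted p under 0.05 with edgeR, against 2369 of the 48828. A quasi-binomial model called C15632T and A15939G, where it called 5.53% of alleles of the genome. In replicate 1 C15632T ranked at number 42 of all 48897 alleles by mean fraction. It made up 2.76% to 7.58% of the transition load of the region in that number and 0.311% to 1.44% in replicate 2.

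A15580G was the highest transition of replicate 2, with means of 0.0492% ± 0.0535 in replicate 1 and 0.462% ± 0.289 in replicate 2 (SD, n = 8 each). In replicate 1 it ranged from 0 of 14975 counts in CD24, which allows up to 0.0200%, to 0.162% in 6C3. In replicate 2 it was at 0.771% in CD45, 0.737% in CD105, 0.607% in Thy_6C3, 0.595% in 6C3 and 0.392% in CD29, with Thy between 6C3 and CD29, but at 0.0705% in CD24 and at 0 of 8264 counts in CD24_CD29, which allows a fraction of up to 0.0363%. The numbers overlapped through CD24 and CD24_CD29. It never reached 1% and so was not among the alleles tested, and with the fraction filter set to 0.5% its log2 difference of replicate 1 over replicate 2 was -3.48 and did not pass (adjusted p = 0.0918 with edgeR).

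T15932G and C15885G had ranges that overlapped between the numbers. T15932G was at 0.902% to 1.67% in replicate 1 and at 1.10% to 2.41% in replicate 2, with means of 1.36% ± 0.273 and 1.51% ± 0.424 (SD, n = 8 each). It was counted in 8 of 8 libraries of replicate 2, the sole allele of the region of which this held. C15885G was at 0.747% to 1.14% in replicate 1 and at 0.750% to 1.08% in replicate 2, with means of 0.959% ± 0.120 and 0.877% ± 0.119. Both are transversions present in every library, and without Thy replicate 2 T15932G did not exceed 1.85%.

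**Figure D4:**
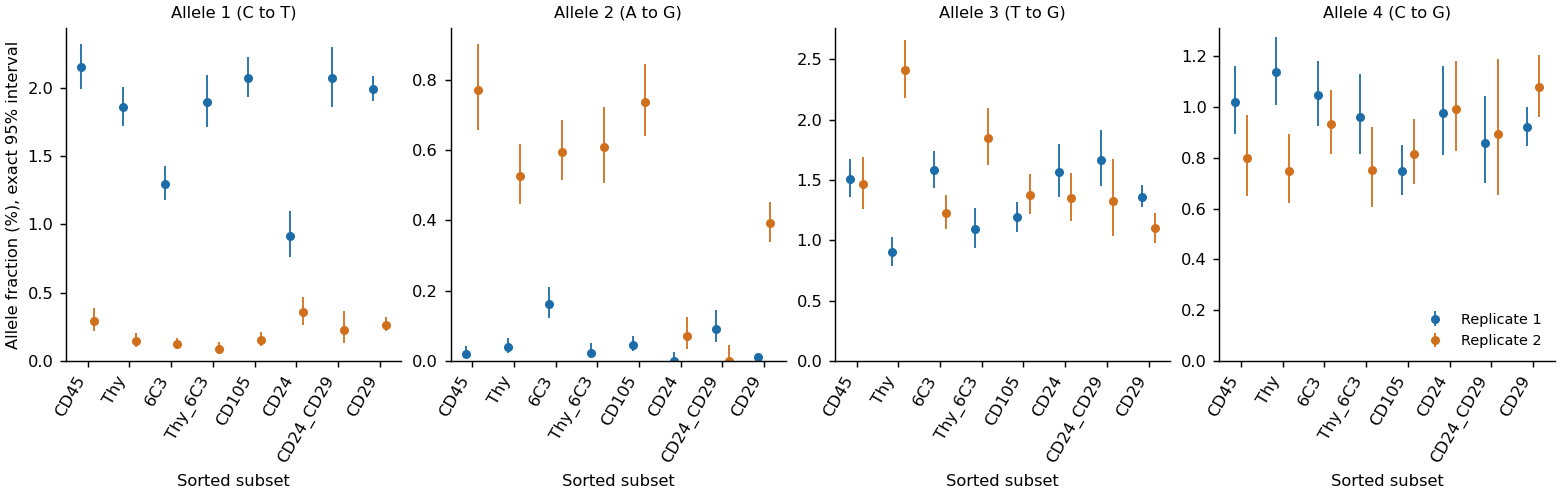
Fraction in percent, with exact 95% intervals for counting error, of 4 alleles of the control region part in each sorted subset, coloured by replicate number. C15632T lies at 0.917% to 2.15% in replicate 1, above all its values in replicate 2, while T15932G overlaps between the numbers.

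Of the 5 transitions with the highest mean in each number, C15632T was among them in replicate 1 only and A15580G in replicate 2 only. The other 4 were the same in both numbers and lie in a single stretch of 115 bases. They are shown in capitals on the reference strand at chrM:15660-15774, in the order T15668C, A15725G, T15757C and A15765G.
stretch with 4 shared transitions: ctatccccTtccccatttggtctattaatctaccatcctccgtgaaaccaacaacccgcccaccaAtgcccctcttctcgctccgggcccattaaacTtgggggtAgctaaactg
T15668C averaged 0.439% ± 0.204 in replicate 1 and 0.450% ± 0.248 in replicate 2, from 2 of 7098 counts in CD24_CD29 replicate 2, under the limit of 0.0423% that a count of 0 allows there, to 0.818% in CD24_CD29 replicate 1. A15725G averaged 0.410% ± 0.275 and 0.324% ± 0.15, from 0.108% in CD24 replicate 1 to 0.849% in Thy replicate 1. A15765G averaged 0.375% ± 0.168 and 0.420% ± 0.193, from 0.137% in CD24 replicate 1 to 0.670% in CD45 replicate 2. T15757C averaged 0.333% ± 0.193 and 0.319% ± 0.0880, from 0.195% in Thy_6C3 replicate 2 to 0.797% in CD24 replicate 1 (SD, n = 8 each for all 4). At T15668C the lowest and the highest value were thus those of the same subset. Over the 577 transitions, mean fractions of the 2 numbers had a Spearman correlation of 0.855 across alleles, which share libraries and depth and are no independent replicates.

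The remaining alleles with high means were transversions. C15498A was at 0.462% or more in every library, G15489T at 0.400% or more and G15497T at 0.401% or more, and in the 15 libraries without Thy replicate 2 none of these exceeded 0.687%. G15948T had 0.392% to 0.600% in those 15 libraries. In Thy replicate 2 T15835G reached 2.54%, T15909G 2.21%, T15668G 2.11% and T15558G 1.87%, the highest value of each. In the other 15 libraries T15835G ran from 0.381% to 0.694%, T15909G from 0.170% to 0.614%, T15668G from 0.228% to 0.507% and T15558G from 0.377% to 0.540%.

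For differences between sorted subsets, edgeR called 0 of the 73 tested alleles over all subsets and 0 in each contrast of a subset with the mean of the other 7, where 0.0% of 3487 alleles of the genome passed each of the 9 tests. An unadjusted p under 0.05 was reached by 48 of the 73 for Thy, or 65.8%, against 48.9% of the 3487 alleles of the genome. It was reached by 0 of the 73 in the test over all subsets and in the other 7 contrasts. Over the genome it was reached by 1.49% of alleles in the test over all subsets, 6.31% for CD24_CD29 and 3.15% for Thy_6C3. The remaining contrasts had 0.115% for CD45 to 1.23% for CD24 over the genome. DESeq2 called 60 for Thy, where 58.0% of alleles of the genome were called, and a quasi-binomial model 64, where 64.8% were. Of the 73 alleles, 68 were counted in Thy replicate 2 alone and passed the fraction filter through it, so these counts are not taken as a difference of Thy cells. The allele nearest to a call for Thy was T15645G, at 0.291% and 1.30% in Thy replicates 1 and 2 and at 0.131% to 0.283% in the other subsets (log2 difference 1.78, edgeR adjusted p = 0.0985). It also had the smallest p over all subsets (edgeR adjusted p = 0.886) and for 6C3, where it was at 0.161% and 0.131%, against 0.145% to 1.30% in the other subsets (edgeR adjusted p = 0.997).

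T15556A was nearest to a call for Thy_6C3, at 0.147% and 1.14% in replicates 1 and 2, against 0.0933% to 0.319% in the other subsets (edgeR adjusted p = 0.999). Its high value was that of a single library, and without Thy_6C3 replicate 2 the log2 difference was -0.0262. A15939G was nearest for CD29, at 0.130% and 1.27%, against 0 to 0.310% in the others (edgeR adjusted p = 0.986), and also for CD24_CD29, at 0.0162% and 0.0367%, against 0 to 1.27%, without passing (edgeR, unadjusted p = 0.195). A15976C for CD45, A15933C for CD105 and A15654C for CD24 had unadjusted p values of 0.285, 0.451 and 0.120 with edgeR, with log2 differences of -0.77, -0.52 and -1.34. Each of these 3 A>C alleles reached 1.06% to 1.15% in Thy replicate 2, and none passed.

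The transition load of the region was highest in 6C3 cells, at 0.0745% ± 0.00968, followed by CD29 at 0.0641% ± 0.00571, Thy at 0.0608% ± 0.0156, CD45 at 0.0518% ± 0.00357, CD105 at 0.0485% ± 0.00156, CD24_CD29 at 0.0484% ± 0.0111, Thy_6C3 at 0.0452% ± 0.00561 and CD24 at 0.0419% ± 0.00116 (SD, n = 2 each). The libraries of each pair of neighbours in this order overlapped. Of the variance over 16 libraries, 76.1% lay between subsets, which did not pass (exact permutation test over every pairing of the 16 libraries, one-sided, adjusted p = 0.104 over 4 measures). Without both Thy libraries it was 84.6% (exact permutation adjusted p = 0.0192). The rest of the genome had the same 2 subsets on top, with 0.197% ± 0.0234 in 6C3 and 0.172% ± 0.0187 in CD29. The ratio of region to rest ranged from 0.306 to 0.452, and 51.1% of its variance lay between subsets (exact permutation p = 0.398, one-sided). For the load of all changes the share was 50.6% (exact permutation adjusted p = 0.178), and 88.9% without both Thy libraries (exact permutation adjusted p = 0.00749), and for the number of counted alleles 47.0% (exact permutation adjusted p = 0.531).

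Coverage of the region relative to the rest of the genome differed between subsets. It was 1.22 ± 0.0315 in CD45, 1.16 ± 0.0218 in Thy, 1.15 ± 0.0892 in CD24_CD29, 1.13 ± 0.0341 in CD29, 1.11 ± 0.0848 in Thy_6C3, 1.01 ± 0.0329 in 6C3 and 0.860 ± 0.00906 in CD24 (SD, n = 2 each). In CD105 it was 0.950 and 1.05 in replicates 1 and 2. Both CD24 libraries, at 0.866 and 0.853, lay below all others. Of the variance, 90.0% lay between subsets (exact permutation, one-sided, adjusted p = 0.0156). The difference did not pass without CD24 replicate 2 (exact permutation adjusted p = 0.0532). The 577 positions upstream, in CYTB, TrnT and TrnP, differed as well, with 90.9% of the variance between subsets (exact permutation p = 0.00179) and a relative coverage of 1.04 and 1.06 in CD24 and 1.59 and 1.66 in CD45. The ratio of the region to those upstream positions, 0.727 to 0.839, still had 89.5% of its variance between subsets (exact permutation p = 0.00487). Over all 16 libraries the region had 1.07 times the coverage of the rest, higher in 12 of 16 (exact sign-flip permutation p = 0.0282, two-sided), but the p was 0.156 and 0.133 within replicates 1 and 2 (exact permutation) and 0.0807 without both Thy libraries. It was 0.0517 without CD45 replicate 1, 0.0538 without CD45 replicate 2 and 0.0523 without CD24_CD29 replicate 1, by the same exact test. Along the region the relative coverage declined, with a median over libraries of 1.39 in the first window and 0.655 in the last 27 positions.

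**Figure D5:**
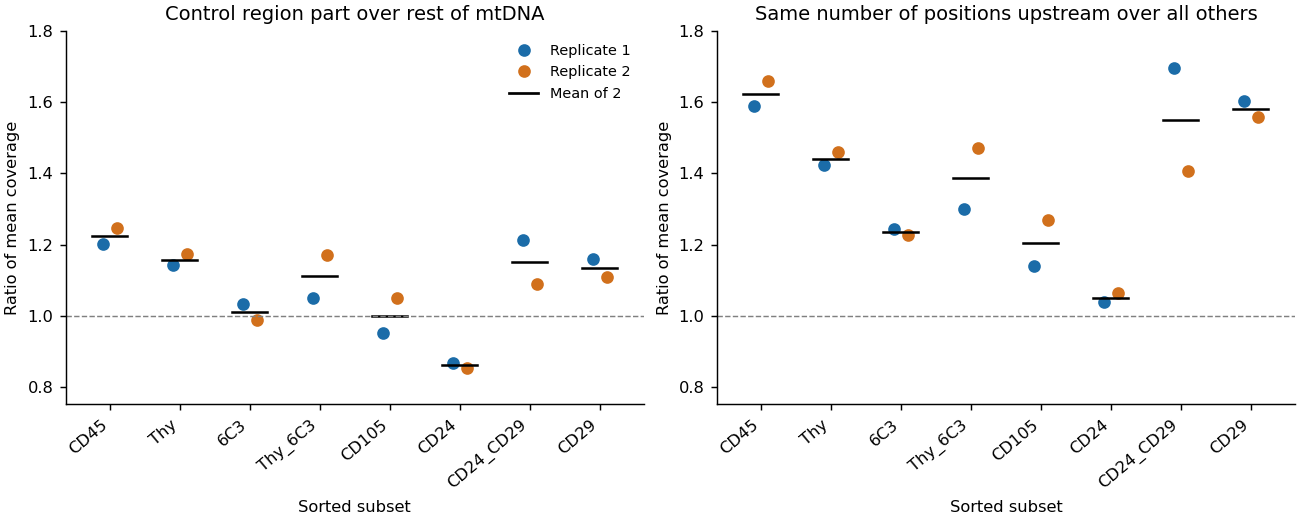
Mean coverage of the control region part over the rest of the mitochondrial genome (left), and of the 577 positions upstream over all others (right), with a point per library coloured by replicate number, a bar for the mean of 2 and a dashed line at 1. CD24 lies lowest on the left, at 0.866 and 0.853, and CD45 highest by mean, at 1.22.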

How the data were processed

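Per the labels' protocols, femurs were digested, subsets were sorted by FACS, and lysed cells were treated with Tn5 before paired-end sequencing of 100 bp reads. The deposited values are whole-number counts, not normalized: per library, the coverage at each mitochondrial position and how often each non-reference base was seen there. The tools BWA 0.7.17, cutadapt 2.10 and bcl2fastq 2.20 and the builds mm10 and GRCm38 are named per the submitters' processing notes. Quality filters and the treatment of duplicate reads, of nuclear copies of mitochondrial DNA and of reads across the ends of the linear reference were not given in the sources used here. These steps can change low fractions and coverage, and duplicates would make the intervals too narrow.

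From these counts, each allele fraction was its count divided by the coverage at that position. Intervals are exact (Clopper-Pearson) at 95%, and intervals and limits cover counting error only. Ratios of region to rest were tested on the log2 scale by exact sign flips over libraries, and differences between subsets by the share of variance between subsets over all pairings (Python 3.11.15, scipy 1.17.1). Single alleles were tested with edgeR 4.0.16 in R 4.3.3, with non-reference and reference counts as paired columns, a term per library and a term per subset, over the 3487 alleles counted at 1% with at least 5 counts in some library, at an adjusted p of 0.05. The edgeR test was checked on counts simulated from the mean fractions and coverages of these libraries, and the exact tests on random normal values only. DESeq2 1.42.0, a quasi-binomial model, other filters, a replicate block and leaving out each library were alternatives. Sequences and their positions were read from the reference bases in the deposited tables, and genes from RefSeq's annotation of GRCm38.p6.

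Alleles named are, in each number, the 5 with the highest mean, those counted in all 8 libraries and the 3 highest counted in exactly 1 library, with the 5 that have the highest minimum over 16 libraries and the extreme allele of each contrast. The transitions A15580G, T15668C, A15725G, T15757C, A15765G, G15727A and G15866A were added after their values were seen, as were the comparisons with classes of genes, with TrnP, with same-length stretches and with the upstream positions. The region and all lists were chosen with earlier results of these data known.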

Additional observations from a re-analysis of the deposited data

Results flagged for a closer look

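In 14 of 44 groups of 8 libraries with the same number, 1 library lay far from the other 7 by Dixon's criterion. Chance flags about 5% of independent groups, but this count cannot be set against that rate. The groups share libraries, and T15835G, T15909G and T15668G were named because they were counted in exactly 1 library of replicate 2. In most of the 14 groups the library was Thy replicate 2, at 0.960% for the load of the region, 0.888% for transversions, 0.858 for the ratio of the load to the rest, and 69 counted alleles. The same library stood apart at T15835G (2.54%), T15909G (2.21%), T15668G (2.11%), T15558G (1.87%), G15489T (1.13%), C15498A (0.988%), G15497T (0.898%) and G15948T (0.786%). Its transition load in the region, 0.0718%, was the highest of replicate 2, where the other 7 libraries reached 0.0682%, and lay below the 0.0814% of 6C3 replicate 1. Its ratio of transition load to the rest, 0.452, was the highest of the 16. Among replicate 1 libraries, 6C3 stood apart in transition load at 0.0814%, and CD24 at T15757C, at 0.797%. The coverage of the region relative to the rest differed between subsets, which held 90.0% of its variance.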

How the results depend on the processing

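The lower load of the region, for all alleles and for those at or under 1%, kept its direction and passed under every alternative run, and the base changes that passed numbered 11 without any single library. Left out one at a time, libraries gave a log2 load ratio of -0.51 to -0.49, -2.41 to -2.15 for alleles at 1% or more, -0.46 to -0.43 under 1% and -0.92 to -0.88 against the other 300 positions, and -9.94 to -7.63 counted alleles per 1000 positions. The log2 relative coverage was 0.089 to 0.13 without single libraries and 0.0880 without both Thy libraries, where it no longer passed. The share of variance between subsets was 86.1% to 93.0% for relative coverage, 49.6% to 99.8% for the load, 69.9% to 86.7% for transitions and 34.5% to 99.9% for counted alleles without single libraries. Without Thy replicate 1 the lone Thy library adds nothing to the spread within subsets. Without both Thy libraries the shares were 88.9% for the load and 84.6% for transitions, and both passed. Alleles of the region called numbered 0 to 68 over all subsets, 0 to 69 for Thy and 0 to 2 for CD24 without single libraries, with the upper values without Thy replicate 1, where 66%, 68.7% and 4.22% of the 3487 alleles of the genome were called and the remaining Thy library is assumed to vary like the others. They numbered 60 for Thy with DESeq2 and 64 with the quasi-binomial model. Replicate 1 over replicate 2 gave 1 to 2 calls without single libraries and 2 with the quasi-binomial model. The second was A15939G, with an adjusted p of 0.0443 in that model and of 0.0239 with edgeR without either CD24 library. C15632T passed in all of these, with log2 differences of 3.04 to 3.48.

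Single changes were less stable. C>G had a log2 ratio of 0.0406 with both ends drawn in by 50 positions, and A>C one of 0.00525 over alleles under 1% in every library. T>G had -0.20 over those alleles, -0.16 by the median over positions and -0.78 against the other 300 positions. The log2 difference of T15556A for Thy_6C3 was -0.0262 to 2.94 without single libraries. The cause of these changes was not tested.

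With the replicate number as a block, 0 alleles of the region were called in all 9 tests, as without it. Deviations of libraries with the same number had a mean correlation of 0.0695 over 28 pairs of subsets, from -0.0887 to 0.219, and for transitions of 0.104, from -0.0688 to 0.258. Not every pair was above 0.1. Most of these alleles were at low fractions, where errors and mutations cannot be told apart, so these correlations cannot decide whether the numbers pair the samples. Single alleles did differ by number, as C15632T and 5.76% of the 3487 alleles tested over the genome passed that contrast with edgeR. In the shallowest library, CD24_CD29 replicate 2, a fraction below 0.0421% cannot be told from 0 at mean coverage. The limit was higher where coverage was lower, as at A15976C with 0.0826%.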
